A study of Picea abies with 48 samples.

Results

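The 150 genes described here are those that fell the most in the scion of grafted Norway spruce on days 3 and 7 after grafting (DAG) while staying within 1 log2 unit of intact plants in the rootstock. They were picked from 70736 gene models by their values. A gene needed a mean of at least 1 CPM (counts scaled to library size) in intact plants of both days. Its difference from intact plants, on the scale log2(mean CPM + 0.5), had to lie between −1 and 1 in the rootstock on both days. The 24068 genes that met both limits were ordered by the weaker of their 2 scion differences, and the 150 most negative were taken. All 150 passed the filter on low counts. The values of days 3 and 7 are therefore given as a description. Days 0, 1, 14 and 28 took no part in the choice, and the tests below come from those days.

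In a graft, the shoot part above the cut is the scion and the part below it is the rootstock. Auxin and sugars normally move down the stem towards the root, water and minerals move up in the xylem, and a cut interrupts both routes until new vascular tissue bridges the junction. The tissues above and below a cut can therefore hold different amounts of the same signals while they heal.

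Hypocotyl tissue of wild-type *Picea abies* seedlings of the source FP-96 Skogsgård was sequenced as poly(A) RNA. Intact, ungrafted plants were sampled on days 0, 1, 3, 7, 14 and 28. Grafted plants, in which a seedling shoot was joined to a seedling root part of the same stock, gave scion tissue from just above and rootstock tissue from just below the junction on days 1, 3, 7, 14 and 28. Each of the 16 groups had 3 replicates, and each replicate pooled 5 plants. The intact samples were cut as 1 piece, so they are the reference for both tissues, and the scion and rootstock comparisons of a day share them. In pieces of tissue, fewer cells of a type and less RNA per cell cannot be told apart.

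Between 11511598 and 27687377 reads were counted per library. The 10 most abundant genes took 6.76% to 9.7% of the counts in intact libraries but 4.27% to 5.54% in scion libraries, and 4.78% to 9.35% in rootstock libraries. Markers of phloem (PaAPL-like), xylem (PaVND4-like and PaPRX66-like) and dividing cells (PaCDKB2;2-like) had reads in all 48 libraries and moved with the groups. Against intact plants of the same day, PaPRX66-like differed by −2.09 in scion on day 1 and by 4.42 on day 14 (log2, edgeR). In rootstock it differed by −3.72 and 3.76. PaVND4-like changed by −2.81 in rootstock on day 1, and fell less in scion. On day 14 it differed by only 0.28 in scion and −0.37 in rootstock. PaCDKB2;2-like differed by −0.91 in scion and −1.31 in rootstock on day 1. On day 14 in scion, PaCDKB2;2-like was higher by 1.58 and PaAPL-like by 1.21. From day 0 to day 14, intact plants changed by −4.30 for PaPRX66-like, −1.40 for PaCDKB2;2-like and 0.03 for PaAPL-like. The day-14 differences of PaPRX66-like and PaCDKB2;2-like thus include a fall in intact plants. The wound and callus marker PaWOX13-like had 7.49 to 40.4 normalized reads in intact plants and 55.2 to 162 in scions. PaWIND1-like was at 0 in 1 intact library and reached 437 normalized reads in scions. Genes annotated with green tissue words, 7 in all, took 0.0289% to 0.0357% of counts in intact plants on day 1, and 0.154% to 0.182% in scions. On day 14 those shares were 0.0654% to 0.0981% and 0.0603% to 0.0813%. The 79 genes annotated with ribosome words took 0.634% to 0.662% in intact plants and 1.75% to 1.9% in scions on day 1. Both word sets come from shortened gene tables that list genes that rose after grafting or auxin. Their rise on day 1 was thus favoured by that choice and does not describe all green tissue or ribosome genes. The part of these markers and gene sets in the results below was not tested.

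On the days that chose them, the 150 genes had a median scion difference of −1.54 on day 3 and −1.79 on day 7 on the log2(mean CPM + 0.5) scale. The medians in the rootstock were −0.35 and −0.56. The median of all tested genes on the same scale was 0.16 and 0.18 in the scion. The first gene of the list, MA_696786g0010, had differences of −2.70 and −3.14. At the other end the edge was close. The weaker scion difference was −1.2460 for MA_99276g0010, the last but one, and −1.2459 for MA_10432911g0010, the last. Just outside stood MA_196108g0010 with −1.2458 and MA_22140g0010 with −1.2445. Leaving out single libraries of days 3 and 7 kept 125 to 146 of the 150 genes.

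Many of these genes are abundant in intact hypocotyls. Over the 12 intact libraries of days 0, 1, 14 and 28, their median was 475 normalized reads (counts divided by a library size factor), against 160 for the 24068 genes that met the same limits. Both sets had passed the same minimum. The ranking adds a constant to CPM before the log, which shrinks the differences of scarce genes and so favours abundant ones. How much of the gap in abundance comes from this was not tested. The most abundant of the 150, MA_10431300g0020, was also the most abundant gene of intact plants. Its mean was 355742 normalized reads over all 18 intact libraries. It carries no description and was singled out after its values were seen. Over all 18 intact libraries, 12 of the 150 were among the 100 most abundant genes. Of the 150, 15 exceeded 10000 normalized reads and 33 stayed under 100 over the same libraries. These libraries include intact plants of the days that chose the genes. The shares among the 24068 genes were not counted.

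The 150 genes took a large share of intact libraries and a much smaller share of scion libraries. In intact plants the median share was 4.75% on day 0, 4.88% on day 1, 5.38% on day 14 and 3.72% on day 28. In scions the median was 1.30% on day 1, 1.49% on day 14 and 2.34% on day 28. In rootstocks it was 1.68%, 3.04% and 2.91%. No scion library reached the lowest intact library of its day, also on day 28, where scions lay at 2.32% to 2.54% and intact plants at 3.61% to 4.54%. Rootstock libraries lay below intact ones on days 1, 14 and 28 too. Without the most abundant gene, the medians of day 14 were 3.49% (intact), 0.934% (scion) and 1.86% (rootstock), so the order did not rest on that gene.

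**Figure D1:**
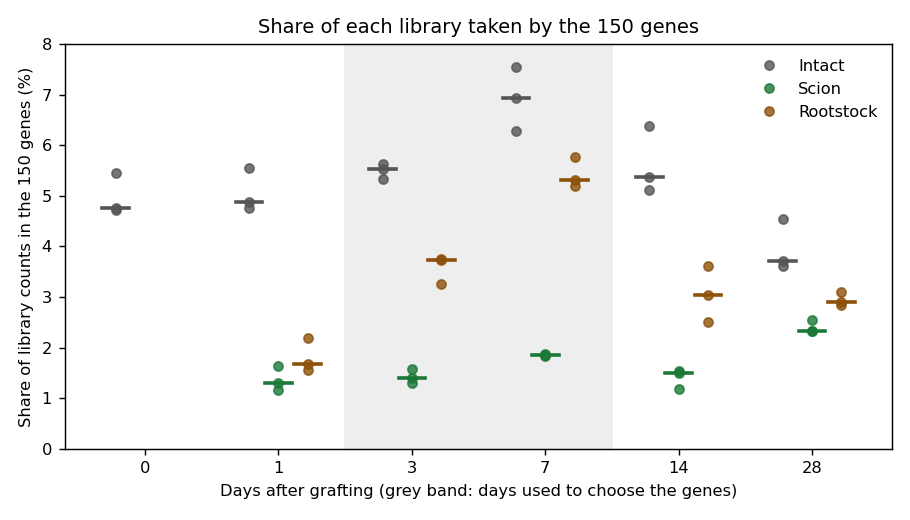
Share of each library's counted reads (%) taken by the 150 genes, by days after grafting. Points are single libraries, bars are medians of 3, and the grey band marks the days that chose the genes. Scion libraries lie below intact libraries on every day, and rootstock libraries lie between them at day 14.

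A gene is called lower or higher below where its adjusted p in edgeR was under 0.05 and its log2 fold change passed −1 or 1. One day after grafting, 120 of the 150 genes were lower in scion than in intact plants, with a median log2 fold change of −1.82. Of all 38436 genes tested, 11.3% were lower and 11.4% higher. None of the 150 was called higher in edgeR, where 2 were higher at an unadjusted p under 0.05, and DESeq2 called 0. The rootstock had lost many of the same transcripts on that day. There, 76 were lower and 9 higher (background 16.5% and 13.8%), with a median of −1.18. Lower in both tissues were 74 genes. The shares of all tested genes in this and the later joint classes of the 2 tissues were not counted. Thus the small rootstock differences that defined the list on days 3 and 7 did not hold on day 1.

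The direct comparison of the 2 grafted tissues tests whether scion and rootstock differed. On day 1, 36 of the 150 genes were lower in scion than in rootstock and 1 was higher (background 3.79% and 6.37%). The median was −0.76. Among the 46 genes called lower in the scion but not called in the rootstock, 17 were lower in scion than rootstock by this test, and for the other 29 a difference between tissues was not shown.

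On day 14 more of the genes were lower in scion, and 79 were both lower than in intact plants and below the rootstock. The joint share over all tested genes was not counted. In scions 136 genes were lower than in intact plants (background 7.47%), with a median of −2.02. None was called higher by edgeR or DESeq2, or at an unadjusted p under 0.05 (background 11.0%). In rootstocks 62 were lower (background 4.77%), with a median of −0.93. The count of higher genes in the rootstock was 0 by edgeR, by DESeq2 and at an unadjusted p under 0.05 (background 9.31%). Between the tissues, 80 were lower in scion than in rootstock (background 1.4%), with a median of −1.12. No gene was higher in scion by edgeR, DESeq2 or an unadjusted p under 0.05 (background 1.78%). All 62 genes lower in the rootstock were also lower in the scion. Another 74 were lower in the scion only by call, and 44 of these were lower than in the rootstock by the direct test.

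On day 28 fewer of the genes differed from intact plants. In scions 60 genes were lower and 10 were higher (background 2.95% and 7.86%), with a median of −0.74. In rootstocks 39 were lower and 9 higher (background 1.96% and 7.27%), with a median of −0.54. Of the differences between scion and rootstock, few passed the test. Only MA_10430508g0010 was lower in scion than in rootstock (background 0.133%), and 2 genes were with scion and rootstock paired within their replicate number. No gene was higher in edgeR or DESeq2, and at an unadjusted p under 0.05, 4 were higher and 35 lower (background 0.039% higher). The estimated difference was below 0 for 116 of the 150. The change of the scion–rootstock difference from day 14 to day 28 was not tested.

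**Figure D2:**
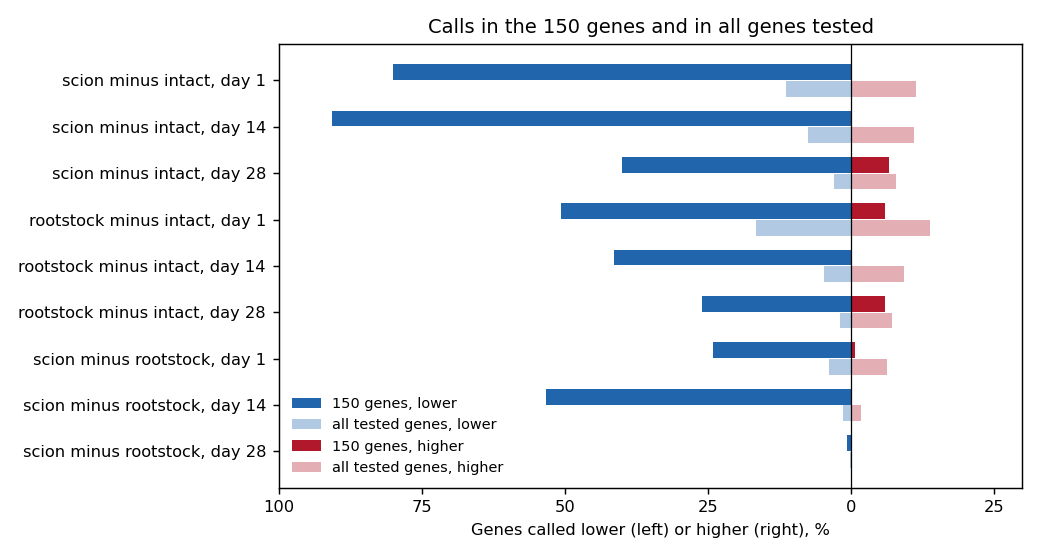
Percentage of genes called lower (left) or higher (right) in each comparison, dark for the 150 genes and pale for all 38436 genes tested. The share lower in scion than intact was 80% on day 1, 90.7% on day 14 and 40% on day 28.

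The change in the scion was tested as the change of the scion–intact difference from day 14 to day 28. It rose for 84 of the 150 genes (background 2.95%), with a median change of 1.30 log2 units, and fell for 1 (background 3.14%). Of the 136 genes lower on day 14, 77 rose in this way, 59 were still lower on day 28 and 6 were higher than in intact plants. The day-14 libraries enter both that call and the change, so the 77 is a description. Of the 2870 tested genes lower in scion on day 14, 291 were lower on days 1, 14 and 28. Another 441 were lower on days 14 and 28 without a call on day 1. Not called on day 28 were 838 with a loss on day 1 and 1175 without a call on day 1. Between days 1 and 14 the difference fell further for 35 genes (background 6.82%) and rose for 14 (background 10.9%). Those counts were 23 without replicate 2 of the day-14 intact plants and 9 without replicate 3 of the day-1 scions. Intact plants changed little at first. Against day 0, edgeR called no gene on day 1 in either direction (background 0.0676% lower and 0.148% higher), with 15 lower and 16 higher at an unadjusted p under 0.05, and DESeq2 called 1 lower and 0 higher. On day 14, 9 were lower and 33 higher than on day 0 (background 8.01% and 7.83%). On day 28, 36 were lower and 22 higher (background 8.06% and 9.87%). The 36 became 22 with library-size scaling.

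**Figure D3:**
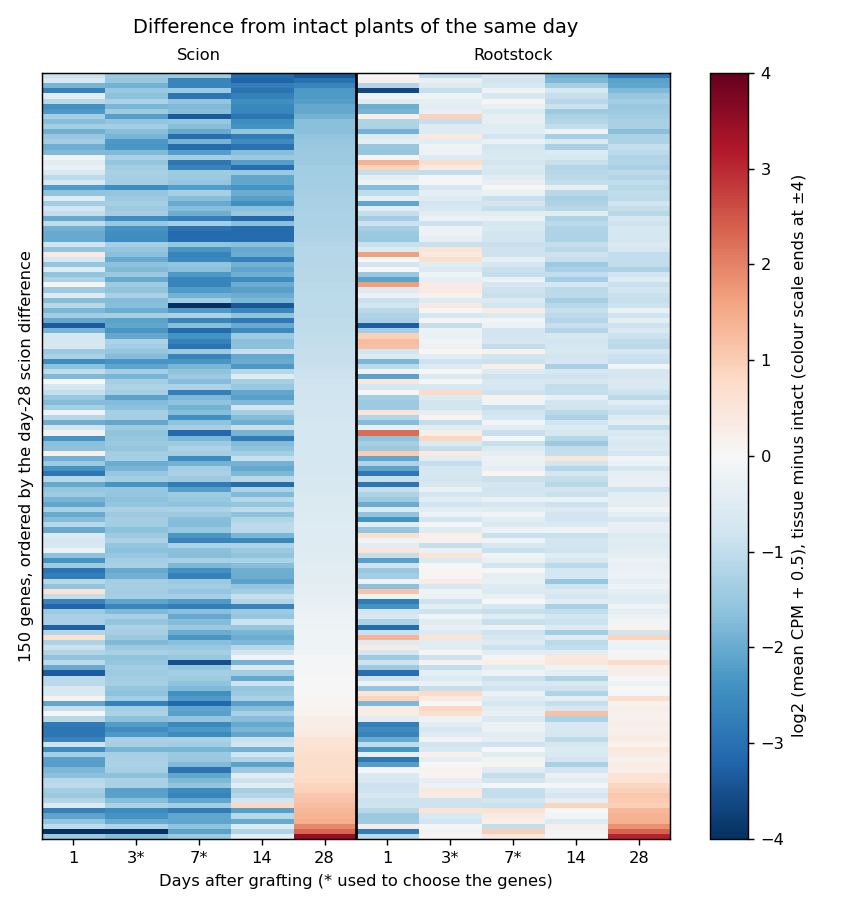
Differences of the 150 genes from intact plants of the same day, on the log2(mean CPM + 0.5) scale, for scion (left) and rootstock (right) by days after grafting. Asterisks mark the days that chose the genes, and rows follow the day-28 scion difference. Scion columns are blue from day 1 to day 14 and paler on day 28, and the rootstock columns of days 1 and 14 hold blue cells too.

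Across the 3 tested days the genes followed a few patterns. In the scion, 57 were lower on days 1 and 14 and not called on day 28, against 2.18% of all tested genes. Lower on all 3 days were 45 (0.757% of all tested genes). Another 14 were lower on days 14 and 28 (1.15%), and 14 on day 14 alone (3.06%). Only 2 were lower on none of these days, where 83.5% of all tested genes were. MA_6521560g0010 was not called at all, and MA_10435654g0010 was higher on day 28. In the rootstock, 117 were lower on at least 1 of the 3 days (19.8% of all tested genes) and 7 on all of them (0.447%), and 27 were never called (62.1%). Among those 27, 19 were lower in the scion on day 1 and 21 on day 14, with median scion changes of −1.29 and −1.47. By the direct test, 10 of the 27 were below the rootstock on day 1 and 8 on day 14. Of all tested genes, whatever their rootstock calls, 11.3% and 7.47% were lower in scion on these days. Below the rootstock were 3.79% and 1.4%. The shares among all genes never called in the rootstock were not counted. Of the 15 genes above 10000 normalized reads, 14 were lower in the scion on day 1, all 15 on day 14 and 7 on day 28. In the rootstock the numbers were 15, 7 and 2. All tested genes have the shares given above for these comparisons, and the shares among equally abundant genes were not counted.

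**Figure D4:**
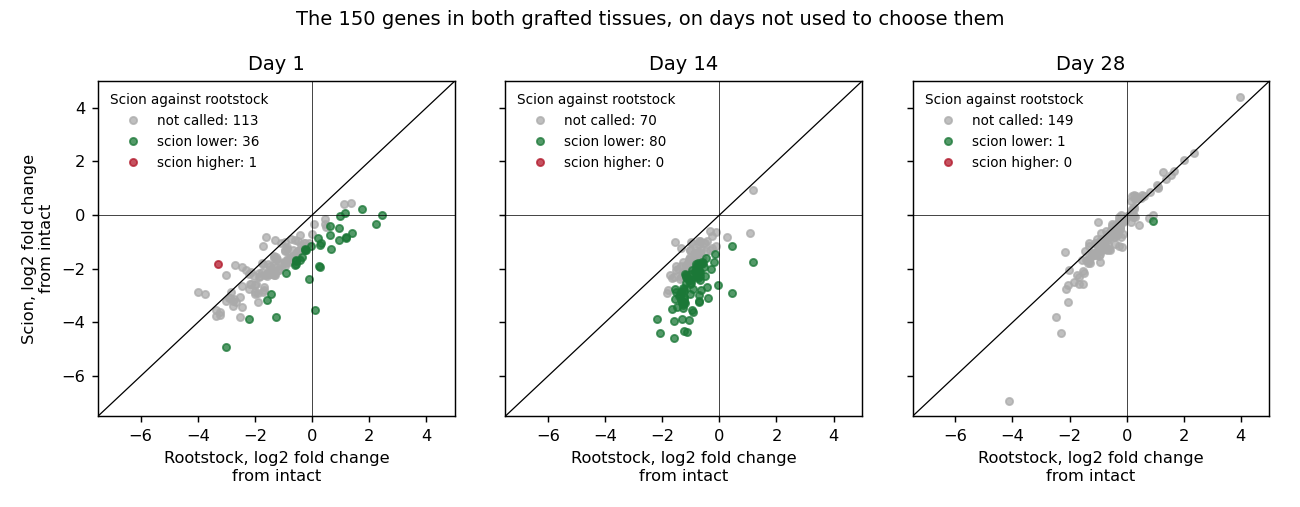
Log2 fold change from intact plants in rootstock (horizontal) and scion (vertical) for the 150 genes on days 1, 14 and 28. The diagonal marks equal change. On day 14 nearly all points lie below it, with 80 called lower in scion than rootstock, and on day 28 they lie nearer to it, with 1.

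Only 13 of the 150 genes have a description in the gene tables held here, which are shortened and list genes that rose after grafting or auxin. They are not a sample of the whole list. Most of what follows is therefore ordered by these 13, grouped by what their relatives are known to do, and then by undescribed genes with the clearest patterns.

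The cell wall enzymes came first. MA_9367g0020 is pectinesterase-like, of the enzymes that take methyl groups off pectin. On day 1 its 3 intact libraries held 2328, 1996 and 1655 normalized reads, the scions 646, 590 and 597, and the rootstocks 1124, 1027 and 983. The 3 groups did not overlap, with scions lowest. The scion change was −1.73 ± 0.18 (log2, SE, n = 3 per group; edgeR adjusted p = 6.61e-10). The rootstock change, −0.96 ± 0.18, stayed under the 2-fold limit. Day-14 scion libraries held 578, 505 and 469 normalized reads against 1484, 1281 and 1566 in intact plants, a change of −1.44 ± 0.19. On day 28 they held 726, 812 and 981, still below the 1122 to 1517 of intact plants, at −0.68 ± 0.18. Of the 63 pectin methyl esterases listed by the study, it is the only one among the 150. Of the 54 tested, 7 were lower and 18 higher in scions on day 14.

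MA_217488g0010 is described as beta-galactosidase 8, of the enzymes that trim galactose from cell wall side chains. It was lower in scion on day 1 (−1.67 ± 0.26, edgeR adjusted p = 1.41e-06) and on day 14 (−1.37 ± 0.27). On day 28 it was higher in both tissues. The scions then held 513, 617 and 628 normalized reads and the rootstocks 575, 636 and 622, against 215, 349 and 293 in intact plants. The scion change was 1.05 ± 0.26 and the rootstock change 1.10 ± 0.26, both close to the 2-fold limit and lost without intact replicate 1. The scion call was also lost without scion replicate 3 and in a fit of only the groups compared. The scion level itself had gone from 251, 186 and 231 on day 14 to these values, while intact plants had fallen by 1.70 log2 units since day 0. No laccase, beta-1-4-glucanase or pectate or pectin lyase of the study's lists was among the 150. On day 14, 17 of 61 tested laccases were higher and 7 lower in scions. Of 22 beta-1-4-glucanases 15 were higher and 1 lower, and of 37 lyases 25 were higher and the other 12 were not called.

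The hormone-related gene was MA_10428249g0010, auxin-induced 15A-like, named after a soybean family of short messenger RNAs that rise soon after auxin. It had 55.7, 83 and 53.4 normalized reads in intact plants on day 1, 11.8, 21.3 and 22.6 in scions and 8.77, 6.98 and 4.2 in rootstocks. It was lower in both, by −1.82 ± 0.39 in scion and −3.31 ± 0.47 in rootstock. It is the only one of the 150 that was higher in scion than in rootstock on day 1 (1.49 ± 0.55, edgeR adjusted p = 0.0416), a call lost without either of 2 scion libraries or any 1 of the rootstock libraries. By day 14 the order had turned. Scions held 8.67, 9.45 and 3.64 normalized reads and rootstocks 19.2, 43.7 and 19.5, below 49.8, 111 and 106 in intact plants. Scion then lay below rootstock by −1.85 ± 0.52 (edgeR adjusted p = 0.0179), a call lost without scion replicate 3 or rootstock replicate 2. Of the 45 tested genes annotated with auxin words, 12 were lower and 11 higher in scions on day 14. These 45 too were described in tables of genes that rose after grafting or auxin, so the split does not describe all auxin genes.

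A pair of genes on 1 scaffold, MA_10430508g0010 and MA_10430508g0020, encode dioxygenase-like proteins. The first is leucoanthocyanidin dioxygenase-like, after an enzyme of anthocyanin synthesis, and the second is likened to JRG21, a jasmonate-regulated gene of *Arabidopsis*. MA_10430508g0010 was not lower in the scion on day 1. Its scions held 397, 413 and 403 normalized reads, above 277, 291 and 303 in intact plants, and its rootstocks held 667, 866 and 769. The rootstock rise was 1.37 ± 0.20 (edgeR adjusted p = 1.45e-07), and the scion change of 0.46 ± 0.20 stayed under 2-fold. On day 14 the scion libraries were at 79.8, 58.4 and 58.2 normalized reads, against 310, 342 and 337 in intact plants and 254, 158 and 269 in rootstocks. The scion loss was −2.28 ± 0.23 and the scion–rootstock difference −1.77 ± 0.24 (edgeR adjusted p = 3.41e-06). On day 28 it was the one gene below the rootstock (−1.14 ± 0.24), a call lost without any of 5 single libraries. MA_10430508g0020 moved alike at lower levels. It was lower in scion on day 14 (−1.92 ± 0.38) and below the rootstock on days 1 and 14 (−1.02 ± 0.27 and −1.39 ± 0.40), both calls close to the limits and lost without any of 3 single libraries.

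A second pair on 1 scaffold, MA_10436871g0030 and MA_10436871g0020, was described as cytochrome P450 750A1, an oxygenase entry from loblolly pine. MA_10436871g0030 had 155, 199 and 130 normalized reads in intact plants on day 1, 16, 17.9 and 33.8 in scions and 39.9, 49.7 and 34.4 in rootstocks. Both tissues were lower, the scion by −2.86 ± 0.35 and the rootstock with an edgeR adjusted p of 1.8e-06. On day 14 the rootstocks were back at 218, 284 and 293, below 310, 335 and 450 in intact plants but not past the test (−0.43 ± 0.26). The scions stayed at 63.3, 48.1 and 54.5 (−2.68 ± 0.31, edgeR adjusted p = 4.83e-09). The scion lay below the rootstock by −2.25 ± 0.31. On day 28 scion and rootstock were both lower, by −1.46 ± 0.28 and −1.18 ± 0.27. MA_10436871g0020 did the same, with −3.08 ± 0.36 in scion and −2.68 ± 0.37 against rootstock on day 14. Of 67 tested genes annotated as cytochromes P450, 7 were lower and 28 higher in scions on that day. These 67 come from the tables of genes that rose after grafting or auxin, so this split does not describe the whole family.

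Plastid chaperones and a receptor kinase came next. Chaperones help proteins fold under stress. MA_10436974g0010, a small heat shock protein of the chloroplast, stood out in the rootstock on day 1. There it held 1677, 1311 and 1902 normalized reads against 451, 233 and 339 in intact plants, while the scions held 280, 340 and 213. The rootstock rise was 2.23 ± 0.29 (edgeR adjusted p = 3.12e-08) and the scion–rootstock difference −2.54 ± 0.29. Scions of day 14 held 55.5, 54.1 and 29.1 against 148, 248 and 264 in intact plants, a loss of −2.18 ± 0.36. Rootstocks held 90.8, 176 and 109, between the other groups. MA_276247g0010, chaperone dnaJ-like and also assigned to the chloroplast, was scarce and variable. On day 14 its intact libraries held 32.8, 289 and 247 normalized reads, the scions 20.8, 3.44 and 1.21, and the rootstocks 49.1, 142 and 42.4. The first intact library was close to the scions. The scion difference from intact plants was −4.34 ± 0.68 (edgeR adjusted p = 2.72e-06). Intact plants had 22, 12 and 21 counts on day 0 and 23, 255 and 208 on day 14. The difference thus includes a rise in intact plants, except in the first library.

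MA_10436347g0010, cysteine-rich receptor kinase 2, belongs to membrane proteins that sense signals outside the cell. Its intact level grew through the course, from 90.4, 153 and 105 normalized reads on day 0 to 741, 1255 and 452 on day 28. Scions held 163, 111 and 131 on day 14 against 409, 565 and 268 in intact plants (−1.58 ± 0.34, edgeR adjusted p = 0.000208). Rootstocks held 198, 230 and 163 (−1.04 ± 0.33), a call lost without 1 intact or 1 rootstock library. It had been higher in rootstock on day 1, by 1.17 ± 0.40, a call lost without 1 intact or either of 2 rootstock libraries. The 9 genes higher in rootstock on day 1 included it, the small heat shock gene, the leucoanthocyanidin dioxygenase-like gene and the undescribed MA_6921525g0010. Their scion changes on day 1 ran from −0.85 to 0.46. On day 14 all 9 were lower in the scion, by −3.53 to −1.58.

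MA_6921525g0010 had the largest rootstock rise of the 150 on day 1. Its rootstocks held 55.5, 54.1 and 42 normalized reads, while intact plants held 8.7, 7.55 and 10.9 and scions 11.8, 7.68 and 7.81. Scion and intact values overlapped. The rise was 2.46 ± 0.38 in rootstock and 0.01 ± 0.46 in scion. On day 14 its scions held 5.2, 3.44 and 1.21 against 37, 60.1 and 29.7 in intact plants (−3.53 ± 0.47, edgeR adjusted p = 3.83e-08) and 11.7, 32.8 and 19.5 in rootstocks.

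MA_24913g0010 is proline dehydrogenase-like, after the mitochondrial enzyme that starts the breakdown of proline. It was an early scion gene. On day 1 intact plants held 1976, 1949 and 2208 normalized reads, scions 539, 494 and 679, and rootstocks 1216, 1645 and 1254. The scion fell by 1.86 ± 0.25 on the log2 scale (edgeR adjusted p = 1.1e-07) and lay below the rootstock by −1.26 ± 0.25. By day 14 scions held 383, 319 and 317 against 498, 503 and 577, which did not pass the test. Intact plants had by then fallen by 1.26 ± 0.25 since day 0.

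MA_15689g0010 carries the description GTPase activating 1-like. Such proteins switch small signalling GTPases off. It ended far above intact plants. On day 1 the scions held 0.842, 4.27 and 3.47 normalized reads against 35.7, 25.7 and 20.7 (−3.24 ± 0.67). On day 3 only 1 count was left in the 3 scion libraries against 59 in intact plants, counts of a day that chose the genes. On day 28 the scions held 222, 139 and 193 and the rootstocks 168, 106 and 142, while intact plants held 12.1, 5.46 and 8.7. The changes were 4.40 ± 0.50 and 3.98 ± 0.50 (edgeR adjusted p = 6.27e-09 and 1.09e-07), the largest rises of the 150 in these tests. MA_179829g0010, a hypothetical protein, was among the deepest losses of the rootstock on day 1. It had 6.82, 13.1 and 1.68 normalized reads there against 99.2, 135 and 108 in intact plants (−4.01 ± 0.53).

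Of the undescribed genes, MA_69167g0010 swung the most. On day 1 the scions held 10.9, 18.8 and 20.8 normalized reads and the rootstocks 83.8, 57.6 and 51.2, against 702, 432 and 390 in intact plants. The scion loss of −4.93 ± 0.39 was the deepest of the 150 on that day. By day 14 the scions held 446, 215 and 378 and the rootstocks 563, 1016 and 970, the latter overlapping with 1119, 869 and 896 in intact plants. On day 28 the scions held 4339, 5034 and 5389 and the rootstocks 4521, 5366 and 5476, against 1157, 1075 and 774 in intact plants. Both tissues were then higher, by 2.31 ± 0.27 and 2.36 ± 0.27. The scion–intact difference rose by 3.74 ± 0.38 from day 14 to day 28 (edgeR adjusted p = 4.22e-08). It was 1 of 10 genes higher in the scion on day 28. Of these 10, 9 were also higher in the rootstock, and 9 had been lower in the scion on day 1. On day 1, 120 of the whole 150 were lower in the scion, against 11.3% of all tested genes.

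MA_45527g0010, at rank 3, showed the same turn with a sharper contrast between tissues. On day 14 its rootstocks, at 121, 232 and 167 normalized reads, overlapped with intact plants at 134, 208 and 210. Its scions were at 43.4, 29.2 and 13.3. The scion lay below the rootstock by −2.53 ± 0.35 (edgeR adjusted p = 5.17e-06), and by −2.52 ± 0.47 on day 1. On day 28 both tissues were higher than intact plants, by 1.35 ± 0.29 and 1.37 ± 0.29. MA_696786g0010, at rank 1, came back to intact levels. Its scions held 474, 207 and 125 on day 14 and 920, 1077 and 1010 on day 28, when intact plants held 724, 1146 and 1085. MA_94546g0010, at rank 2, likewise went from −2.86 ± 0.30 on day 14 to −0.33 ± 0.28 on day 28.

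The opposite course was that of MA_400106g0010, whose loss deepened at every tested day. On day 1 the scions held 205, 167 and 148 normalized reads against 364, 283 and 424 in intact plants, and the rootstocks 404, 278 and 326. On day 14 the scions were at 9.54, 17.2 and 8.48 and the rootstocks at 31, 58.6 and 28.6, against 202, 173 and 177. On day 28 only 2 counts were left in the 3 scion libraries against 298 in intact plants. This was 0.67% of the intact level (exact binomial 95% interval 0.0808% to 2.44%, counting error only). Rootstocks held 4.6, 8.52 and 1.95 normalized reads, a loss of −4.12 ± 0.45. It is the gene whose scion–intact difference fell from day 14 to day 28 (edgeR adjusted p = 0.0485), a call close to the threshold that was lost under 5 other settings of the model and without any of 8 single libraries. MA_6869016g0010 was also lower in scion on all 3 days, with −1.90 ± 0.41, −4.60 ± 0.54 and −3.25 ± 0.56. On day 1 its rootstocks, at 53.6, 64.6 and 93.1 normalized reads, overlapped with 50.5, 57.4 and 69.7 in intact plants, and the scion lay below the rootstock by −2.13 ± 0.41.

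**Figure D5:**
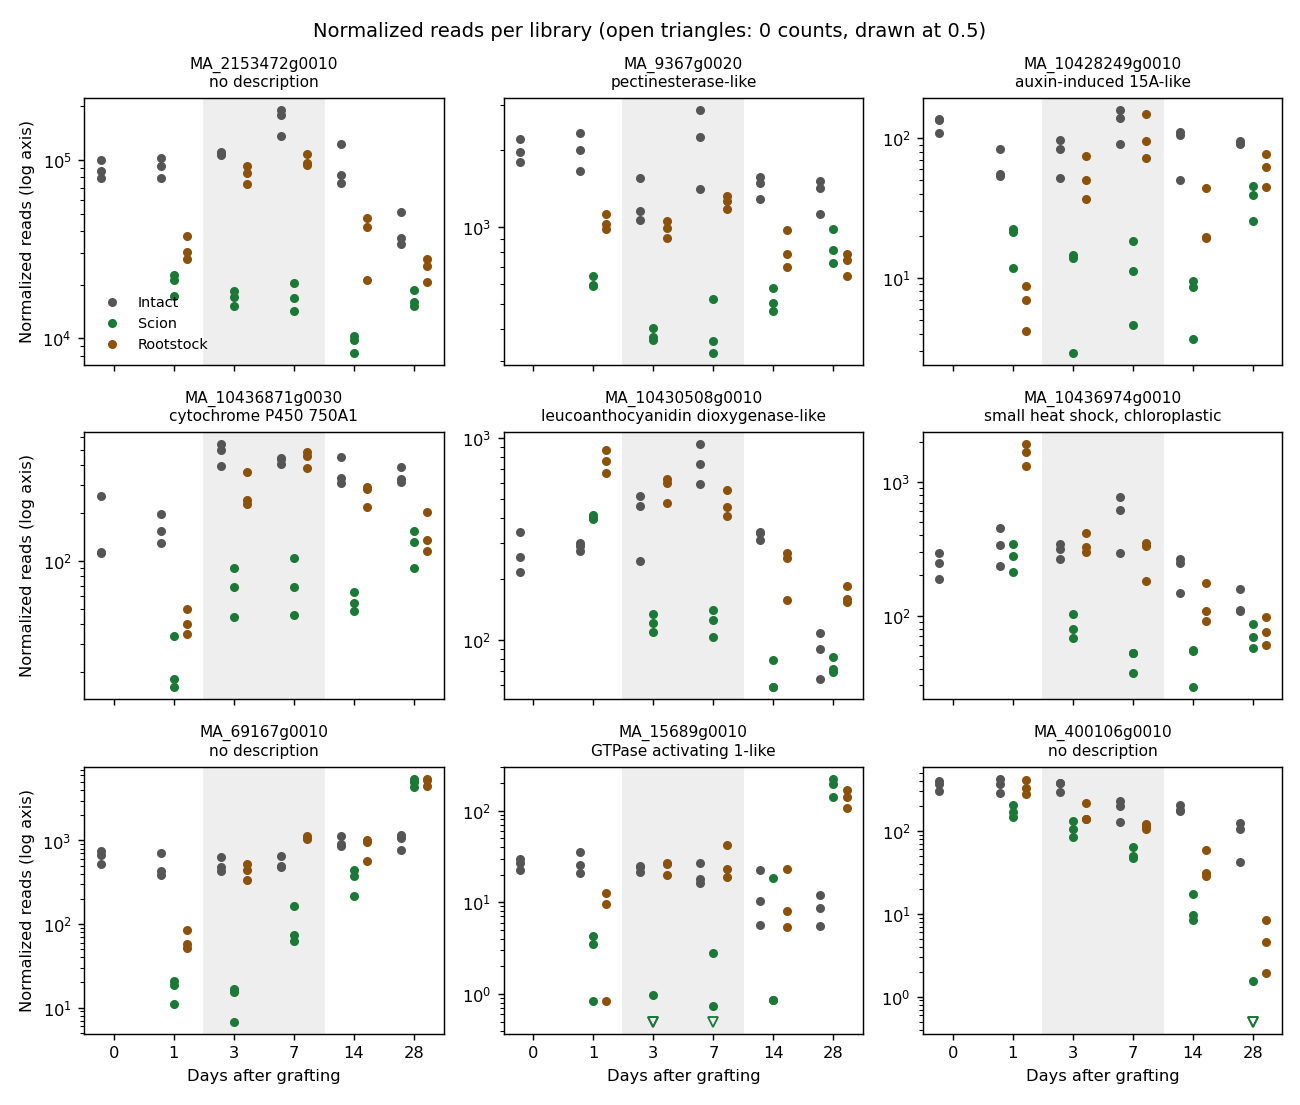
Normalized reads per library (log axis) of 9 of the 150 genes by days after grafting, for intact plants, scion and rootstock. Open triangles mark libraries without a count, drawn at 0.5, and the grey band marks the days that chose the genes. MA_69167g0010 and MA_15689g0010 end above intact plants on day 28, and MA_400106g0010 has 2 counts left in the scion.

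Among the abundant genes, several rose and fell at an almost fixed ratio to each other. MA_2153472g0010 and MA_8166396g0010, at ranks 4 and 5, did so with MA_185772g0010, MA_196669g0010 and MA_165943g0020, which were picked for this after their values were seen. Over the 30 libraries of days 0, 1, 14 and 28, the standard deviation of the log2 ratio was 0.057 for MA_2153472g0010 and MA_185772g0010 and 0.15 for the loosest pair of the 5. The median over the 2346 pairs of genes with at least 100 counts in every library was 0.688. These 5 sit on different scaffolds. Whether they share reads as near-identical copies was not tested, since their sequences were not analysed here, and their separate values may not be independent. MA_2153472g0010 had 73931, 122837 and 82709 normalized reads in intact plants on day 14, 9848, 10256 and 8281 in scions and 21178, 47433 and 41966 in rootstocks. The 3 groups did not overlap. The scion loss was −3.26 ± 0.23, the rootstock loss −1.31 ± 0.21 and the difference between them −1.95 ± 0.21 (edgeR adjusted p = 8.19e-14, 4.91e-06 and 2.58e-07). On day 28 the scion was still lower, at −1.27 ± 0.21.

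Some of the 150 genes are also close on the genome. By their identifiers, 14 of them form 7 pairs of genes on a shared scaffold. How many of the 24068 genes that met the limits share a scaffold was not counted. Within pairs, levels over the same 30 libraries correlated across samples with Pearson's r of 0.934 to 0.997, a description over libraries that share the same groups. This r was not taken for other pairs of the 150, which were all chosen for the same scion fall. The pair MA_10431300g0010 and MA_10431300g0020 holds the most abundant gene of intact plants. That gene had 350125, 422970 and 344486 normalized reads in intact plants on day 14, 88452, 89823 and 69955 in scions and 167231, 238718 and 202030 in rootstocks. The scion change was −2.13 ± 0.18 on days 1 and 14 and −0.76 ± 0.17 on day 28, and the scion lay below the rootstock on day 14 by −1.28 ± 0.17.

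The reverse list, built with scion and rootstock exchanged, shows how far the asymmetry goes each way. It shares 0 genes with this one by construction. Each rule keeps the other tissue within 1 log2 unit of intact plants on the choosing days. In their own tissue, all genes of both lists fell by more than that. Of its 150 genes, 123 were lower and 3 higher in rootstock on day 1, and 88 were lower and 3 higher in scion. On day 14, 72 were lower and 2 higher in rootstock, and 24 lower and 8 higher in scion. On day 28, 10 were lower and 5 higher in rootstock, and 13 lower and 11 higher in scion. The shares of all tested genes are those given above for the same comparisons. Between the tissues, 73 of them were higher in scion on day 1 and 35 on day 14. For the genes described here the corresponding counts of scion below rootstock were 36 and 80. The 2 lists were not tested against each other.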

How the data were processed

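The deposited table holds raw counts per gene model for 48 libraries. Per the study's methods, the authors used SortMeRNA against ribosomal reads and fastp for trimming, then STAR with the v1.0 spruce genome, and HTSeq for stranded counts. Columns were matched to samples by their labels. The 150 genes, the gene lists and the tests were chosen with earlier results of these data known. All 16 groups entered 1 quasi-likelihood fit in edgeR 4.0.16 (R 4.3.3, TMM scaling, filterByExpr with a minimum count of 10, robust dispersion), and p-values were adjusted by Benjamini and Hochberg over all 38436 genes tested. Calls required a change beyond 1 log2 unit at an adjusted p under 0.05. The SE of a fold change was its size over the root of its F. Normalized reads are counts over size factors of DESeq2 1.42.0. Named genes were the 13 with a description, the first 5 by rank, and the 2 extremes each of lasting scion loss, of rises in scion and in rootstock, and of rootstock loss. Counts were also simulated with 1 shared dispersion for all genes, and changes were set in genes above 1 CPM. For scion against intact on day 14, 94% of log2 changes of 1.5 were recovered. The spread of the 150 genes varied, so this share need not hold for them. Replicates pooled 5 plants each, and p-values measure the spread between such pools. Gene tables with descriptions were held in shortened form, and no sequence was used here. Reads shared between near-identical genes depend on the counting. The alternatives were DESeq2, RLE or library-size scaling, other filters, the replicate number as a block, fewer groups in the fit and leaving out each library. Same-numbered scion and rootstock libraries deviated together on day 14 (r = 0.13, 0.17 and 0.19) and day 28 (r = 0.40, 0.23 and 0.29), and none of the other 10 pairs of groups compared on days 0, 1, 14 and 28 had every correlation above 0.1. Pairs of days 3 and 7 were not checked.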

Additional observations from a re-analysis of the deposited data

Results flagged for a closer look

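For 18 of the named genes the scion and rootstock effects against the shared intact plants differed by the direct test in edgeR on at least 1 day, and these differences are given on the log2 scale with no explanation. On day 1, scion was below rootstock by −1.26 for MA_24913g0010, −2.54 for MA_10436974g0010, −1.10 for MA_10436347g0010, −1.02 for MA_10430508g0020, −2.52 for MA_45527g0010, −2.13 for MA_6869016g0010, −1.90 for MA_69167g0010 and −2.44 for MA_6921525g0010. The reverse held for MA_10428249g0010, at 1.49. Several of these day-1 calls depended on the model. Those of MA_10436347g0010 and MA_10430508g0020 were lost with library-size scaling, without the low-count filter, in a fit of only the groups compared and without the libraries of days 3 and 7. Leaving out some single libraries also lost the call of MA_10436347g0010. The calls of MA_69167g0010 and MA_10428249g0010 were lost with scion and rootstock paired, and that of MA_10428249g0010 also without the filter. On day 14, the described genes below the rootstock were MA_10430508g0010 at −1.77, MA_10430508g0020 at −1.39, MA_10436871g0030 at −2.25, MA_10436871g0020 at −2.68, MA_10436974g0010 at −1.39, MA_276247g0010 at −3.08 and MA_10428249g0010 at −1.85. The undescribed genes on that day were MA_696786g0010 at −1.38, MA_94546g0010 at −1.50, MA_45527g0010 at −2.53, MA_2153472g0010 at −1.95, MA_8166396g0010 at −2.05, MA_400106g0010 at −1.71, MA_6869016g0010 at −3.02, MA_69167g0010 at −1.29 and MA_6921525g0010 at −2.58. In the fit of only the groups compared, the day-14 calls of MA_10430508g0020, MA_276247g0010, MA_696786g0010, MA_94546g0010 and MA_69167g0010 were lost. That of MA_696786g0010 was also lost without the libraries of days 3 and 7. Leaving out single libraries lost the day-14 calls of MA_10430508g0020, MA_10436974g0010, MA_276247g0010, MA_10428249g0010, MA_696786g0010 and MA_400106g0010. On day 28 the difference was −1.14 for MA_10430508g0010.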

How the results depend on the processing

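The main counts kept their direction under every alternative run. Leaving out single libraries gave 112 to 121 genes lower in scion on day 1, 132 to 141 on day 14 and 51 to 61 on day 28 (higher on day 28, 7 to 10). In rootstock 76 to 80, 50 to 86 and 26 to 43 were lower, and 8 to 10 and 8 to 12 higher on days 1 and 28. The 50 came without rootstock replicate 1 of day 14, and the 86 without intact replicate 1. Scion below rootstock ranged over 31 to 40, 56 to 92 and 0 to 1, and scion above it on day 1 over 0 to 1. In intact plants against day 0, 0 to 1 were higher on day 1, 8 to 10 lower and 26 to 35 higher on day 14, and 28 to 35 lower and 15 to 24 higher on day 28. From day 14 to day 28, 72 to 94 rose and 0 to 1 fell, and from day 1 to day 14, 23 to 44 fell and 9 to 15 rose. The rule itself kept 125 to 146 genes without single libraries, 140 under TMM scaling, 135 and 124 with 0.25 and 1 CPM added, and 134 with a minimum of 2 CPM.

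Small counts moved with the model. The 1 gene higher in scion than rootstock on day 1 became 2 with library-size scaling, 0 without the low-count filter and 0 with scion and rootstock paired. In intact plants on day 1, DESeq2 and a fit of only the groups compared each called 1 lower gene, and that fit also called 1 higher. The same fit called 1 gene higher in rootstock on day 14. The pairing gave 2 genes below rootstock on day 28. Intact plants on day 28 had 22 lower genes instead of 36 with library-size scaling, which shifted their log2 changes by 0.18. The 1 fall from day 14 to day 28 became 0 under RLE scaling, without the filter, with the replicate block, in the fit of the groups compared, and without the libraries of days 3 and 7. The replicate block changed no other count by over 1.5 times (scion lower, 119 on day 1, 136 on day 14 and 60 on day 28). Library-size scaling moved the split of all calls in scion from 4339 lower and 4378 higher to 3294 and 5424 on day 1, and from 2870 and 4234 to 2169 and 5399 on day 14. For the named genes, 112 of 155 calls held under every alternative, and 150 of 2376 alternative values lost a call, with 0 reversed. The causes of these moves were not tested.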
